A study of Mus musculus with 6 samples.

Results

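The collagen gene family was taken from a table of RNA levels in the subventricular zone (SVZ) of the mouse brain. It comprised every gene whose symbol is Col, a number, the letter a and a number: 44 of the 18614 genes in the table. Of these, 11 encode fibrillar chains, 6 encode the type IV chains of basement membranes, and 27 belong to other classes. The study compared Zhx2Δ/Δ mice with Zhx2+/+ mice in 3 libraries labelled KO and 3 labelled WT. Zhx2 encodes a zinc finger and homeobox repressor. The genotype tags of the KO-labelled libraries name ZHX2 for KO 1, ZHX3 for KO 2 and ZHX4 for KO 3, while all their titles name ZHX2. The labels give no age, sex or strain and do not say whether each library came from a separate animal, so each p-value reflects variation among the libraries, and that variation could be technical. SVZ tissue was dissected in bulk, so fewer cells of a type and less RNA per cell cannot be told apart.

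Collagens are trimers wound from chains in which glycine recurs at a fixed spacing. Fibrillar collagens form the fibres of connective tissue, type IV collagens form the sheet under epithelia and around vessels, and the other classes decorate fibrils, build short-chain lattices or beaded filaments, or sit in the cell membrane. In the brain, collagens are found mainly in vessel walls, meninges and choroid plexus, and basement membrane folds called fractones contact the stem cells of the SVZ. A chain that lacks its partner is usually not secreted as a normal trimer, so the chains of a type are described together below.

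Zhx2 itself was not lower in the KO-labelled libraries. It was at 67.1, 57.8 and 56.3 CPM in KO 1 to 3, against 39.8, 40.5 and 38.2 CPM in WT 1 to 3. CPM are counts scaled to library size, here adjusted by TMM. The log2 fold change of Zhx2 was 0.61 (SE 0.10; adjusted p = 0.163 in edgeR and 0.00142 in DESeq2). Directions below are therefore those of the libraries labelled KO against the libraries labelled WT. Libraries held between 17037152 and 17685906 estimated counts. The floor was taken as 3 counts, which correspond to 0.17 to 0.176 CPM before TMM scaling (counting error only). TMM factors ranged from 0.973 in KO 1 to 1.05 in WT 1. Collagen genes took 0.0601%, 0.0793% and 0.0674% of counts in KO 1 to 3, against 0.102%, 0.0745% and 0.0823% in WT 1 to 3, ranges that overlap.

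No collagen gene passed the main test, while 6 were called by an alternative test, DESeq2. These 6 were the type VIII genes Col8a1 and Col8a2, the type IV genes Col4a3, Col4a4 and Col4a5, and the type IX gene Col9a3. All 6 were lower in the KO-labelled libraries, without overlap between the groups. Of the 44 genes, 42 passed the filter on low counts and were tested with edgeR's quasi-likelihood test over all 15126 genes that passed. At an adjusted p under 0.05 it called 0 collagen genes and 0% of all genes. At an unadjusted p under 0.05 it gave 9 collagen genes lower and 1 higher, where 6.39% of all genes were lower and 2.68% higher. DESeq2 at an adjusted p under 0.05 called those 6 of 42 lower and 0 higher, against 2.02% and 0.0397% of all genes. Limma-voom called none (adjusted p = 0.35 for each of the 6).

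Over the 42 tested genes the median log2 fold change was 0.014, beside 0.018 over all genes tested. Of them 20 were lower and 22 higher. The medians by class were 0.02 for fibrillar, -0.52 for type IV and 0.06 for other collagens. Groups did not overlap in 9 collagen genes that were lower in the KO-labelled libraries and in 2 that were higher, where 8.74% and 8.0% of all genes behaved so. Without the 6 genes named above, 36 tested genes had a median of 0.07, with 14 lower and 22 higher.

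**Figure D1:**
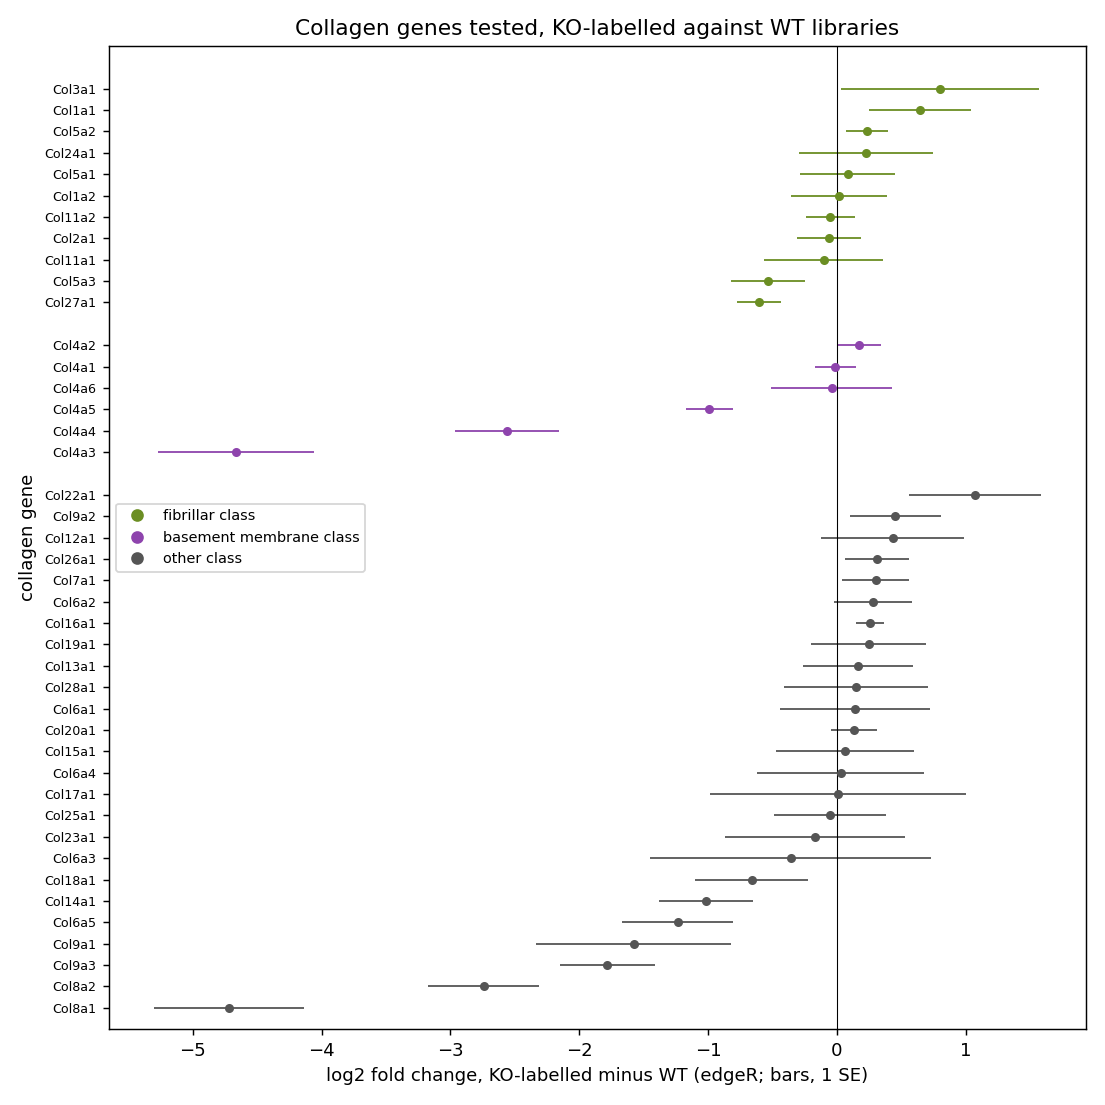
Log2 fold change of the 42 tested collagen genes (x axis, KO-labelled minus WT, edgeR; bars, 1 SE), 1 gene per row, coloured by class. Col8a1 and Col4a3 lie farthest to the left, at -4.72 and -4.66, followed by Col8a2 and Col4a4, while most fibrillar genes lie near 0.

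The promoters of 4 of the 6 genes are shown because these genes were lower together. The windows run from 250 bases before to 50 bases after a gene's start, are taken from RefSeq (build GRCm38.p6) and are written 5′ to 3′ on the gene's strand. RefSeq windows were matched by symbol for 35 of the 44 genes; Col4a3 and Col9a3 are named only. Col8a1 is at chr16:57754688-57754987 on the minus strand, Col8a2 at chr4:126286544-126286843 on the plus strand, Col4a4 at chr1:82586800-82587099 on the minus strand and Col4a5 at chrX:141475169-141475468 on the plus strand. For Col8a1 and Col8a2 the window's start is the gene's outermost RefSeq start. For Col4a4 and Col4a5 it is another one, base 82586849 and base 141475419, which lies 185 and 49 bases inside the gene from the outermost start. Capitals mark the GC box GGGCGG and the E-box CANNTG, each searched on both strands, with overlapping matches kept.
Col8a1: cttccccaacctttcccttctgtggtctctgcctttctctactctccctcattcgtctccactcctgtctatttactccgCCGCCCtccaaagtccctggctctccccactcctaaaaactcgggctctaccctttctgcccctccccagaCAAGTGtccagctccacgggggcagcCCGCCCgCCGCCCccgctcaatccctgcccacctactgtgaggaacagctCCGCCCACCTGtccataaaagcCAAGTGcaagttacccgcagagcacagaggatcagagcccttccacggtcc
Col8a2: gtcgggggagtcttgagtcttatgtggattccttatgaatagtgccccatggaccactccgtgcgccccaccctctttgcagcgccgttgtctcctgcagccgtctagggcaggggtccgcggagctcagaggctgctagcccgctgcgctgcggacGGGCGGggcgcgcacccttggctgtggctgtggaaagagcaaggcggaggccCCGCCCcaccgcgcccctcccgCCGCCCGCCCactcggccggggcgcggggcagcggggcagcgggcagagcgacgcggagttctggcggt
Col4a4: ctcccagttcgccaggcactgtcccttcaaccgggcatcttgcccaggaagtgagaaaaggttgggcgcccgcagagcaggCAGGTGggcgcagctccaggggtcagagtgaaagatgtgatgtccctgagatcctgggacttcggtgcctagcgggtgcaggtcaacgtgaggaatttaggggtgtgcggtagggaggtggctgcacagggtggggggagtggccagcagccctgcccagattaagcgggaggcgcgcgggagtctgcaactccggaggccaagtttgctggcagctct
Col4a5: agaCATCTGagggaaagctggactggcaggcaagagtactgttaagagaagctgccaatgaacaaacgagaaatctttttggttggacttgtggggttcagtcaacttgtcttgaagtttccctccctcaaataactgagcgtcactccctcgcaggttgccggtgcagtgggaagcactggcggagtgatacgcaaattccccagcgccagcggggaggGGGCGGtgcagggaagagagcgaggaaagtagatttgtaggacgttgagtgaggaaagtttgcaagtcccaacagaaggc
The GC box was found 4 times each in the windows of Col8a1 and Col8a2, 1 time in that of Col4a5 and 0 times in that of Col4a4. Over all 32851 windows of this length, 35.7% held it, as did 23 of the 38 collagen windows. The E-box was found 3, 0, 1 and 1 times in the windows of Col8a1, Col8a2, Col4a4 and Col4a5, and in 72.3% of all windows and 20 of the 38 collagen windows. In Col8a1 the last GC box and an E-box share a base, and in Col8a2 the last GC boxes overlap each other. Neither the TATA box TATAAA (13.6% of all windows, 5 collagen windows) nor TAATCC, the core bound by bicoid-class homeodomain factors such as Otx2 (7.06%, 0 collagen windows), was found in any of the 4. GC content was 60.3%, 71.7%, 63.3% and 52.7% in the same order of genes, beside a median of 52.7% over all windows. These matches describe letters in the windows and do not show binding.

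Type VIII collagen is a short-chain collagen that builds hexagonal lattices, known from Descemet's membrane of the cornea and from vessel walls. Both of its chains were lower in the KO-labelled libraries. Col8a1 (chromosome 16, 57624256 to 57754737) was at 0.943, 2.13 and 2.23 CPM in KO 1 to 3, against 64.7, 56.7 and 18.9 CPM in WT 1 to 3. Col8a2 (chromosome 4, 126286794 to 126314330) was at 6.89, 8.58 and 4.87 CPM in KO 1 to 3, against 64.5, 49.4 and 22.2 CPM in WT 1 to 3. Both genes were highest in WT 1 and lowest among WT libraries in WT 3, and no KO-labelled library reached any WT library. The log2 fold change of Col8a1 was -4.72 (SE 0.58) in edgeR, with an adjusted p of 0.144, and DESeq2 gave an adjusted p of 9.13e-19. That of Col8a2 was -2.74 (SE 0.43; adjusted p = 0.151 in edgeR and 4.63e-09 in DESeq2). The estimated counts behind Col8a1 were 16.0, 37 and 38 in KO 1 to 3, against 1196, 945 and 326 in WT 1 to 3.

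FPKM values, which are scaled for transcript length as well as library size, allow the chains to be compared with each other. The deposited FPKM of Col8a1 was 0.18, 0.41 and 0.43 in KO 1 to 3, against 13.1, 10.8 and 3.69 in WT 1 to 3. The FPKM of Col8a2 was 1.54, 1.97 and 1.11 in KO 1 to 3, against 15.4, 11.04 and 5.11 in WT 1 to 3. The ratio of Col8a1 to Col8a2 was thus 0.238 ± 0.138 in KO-labelled libraries and 0.85 ± 0.128 in WT libraries (SD, n = 3 each), with no overlap. Col10a1, the other short-chain gene, which marks hypertrophic cartilage, was not tested, with 3 to 5 counts in KO-labelled and 1 to 8 in WT libraries.

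**Figure D2:**
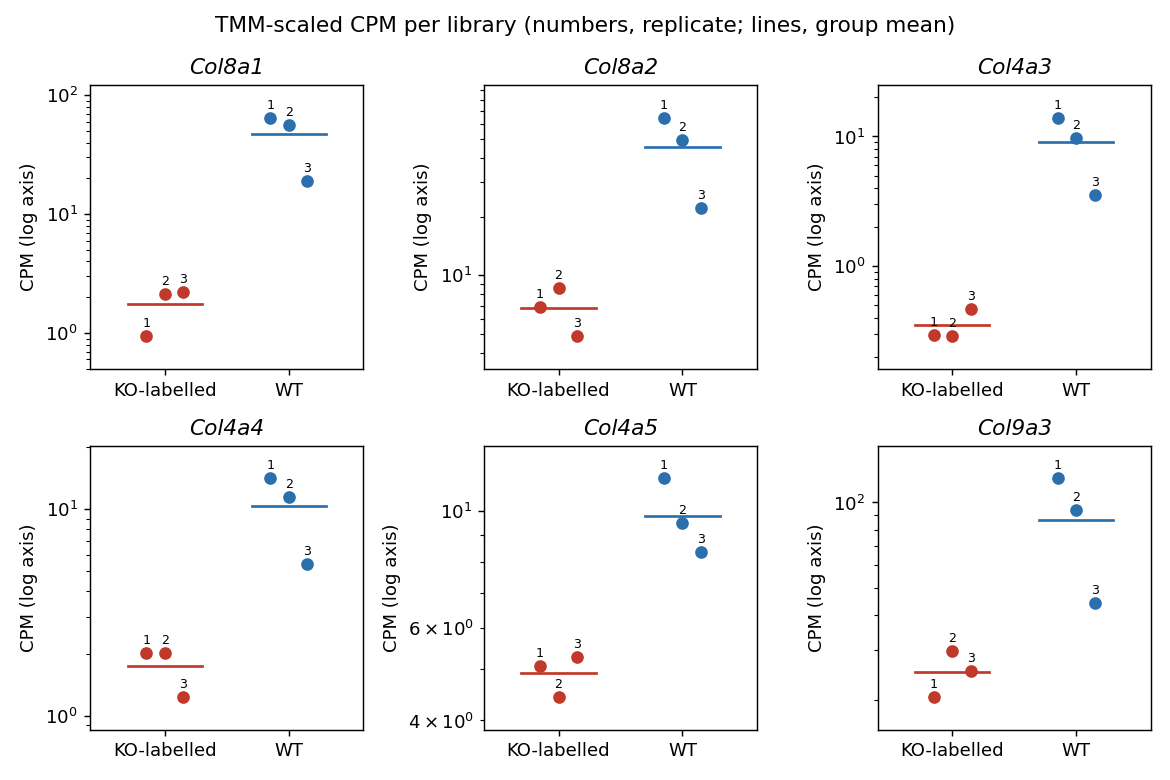
TMM-scaled CPM (log axis) of the 6 genes in each KO-labelled and WT library, with the replicate number beside each point and the group mean as a line. In each panel all KO-labelled points lie below all WT points, and WT 3 is the lowest WT library.

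Type IV collagen has 6 chains in mice, which assemble as the ubiquitous α1α1α2 trimer, the α3α4α5 trimer known from the kidney glomerulus and mutated in Alport syndrome, and the α5α5α6 trimer. Transcripts of the ubiquitous pair did not move with the group, whereas those of all 3 chains of the α3α4α5 trimer were lower in the KO-labelled libraries. Col4a3 (chromosome 1, 82586921 to 82722059) was at 0.295, 0.288 and 0.47 CPM in KO 1 to 3, against 13.97, 9.66 and 3.54 CPM in WT 1 to 3. Col4a4 (chromosome 1, 82448419 to 82587034) was at 2.00, 2.02 and 1.23 CPM in KO 1 to 3, against 14.1, 11.5 and 5.45 CPM in WT 1 to 3. Col4a5 (chromosome X, 141475370 to 141689236) was at 5.07, 4.43 and 5.28 CPM in KO 1 to 3, against 11.5, 9.48 and 8.35 CPM in WT 1 to 3. The difference was greatest for Col4a3 and smallest for Col4a5, and none of the 3 overlapped between groups. Their log2 fold changes were -4.66 (SE 0.61), -2.56 (SE 0.41) and -0.99 (SE 0.18). The adjusted p in edgeR was 0.144, 0.151 and 0.181, and in DESeq2 3.06e-11, 1.19e-06 and 0.0037, in the same order. DESeq2 lost the call of Col4a5 without WT 1 (adjusted p = 0.122). The counts of Col4a3 were 5, 5 and 8 in KO 1 to 3, against 258, 161 and 61 in WT 1 to 3.

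The ubiquitous chains Col4a1 and Col4a2 were the most abundant of the type per length. Col4a1 was at 48.3, 57.5 and 44.5 CPM in KO 1 to 3, against 54.5, 41.3 and 55.6 CPM in WT 1 to 3. Col4a2 was at 51.1, 73.4 and 59.1 CPM in KO 1 to 3, against 56.9, 45.9 and 59.8 CPM in WT 1 to 3. The groups overlapped for both. Col4a1 had a log2 fold change of -0.01 (SE 0.16) and Col4a2 one of 0.18 (SE 0.17), and edgeR gave adjusted p-values of 0.989 and 0.782. Without KO 2 the value of Col4a2 was 0.025. The FPKM ratio of Col4a1 to Col4a2 was 0.814 ± 0.104 in KO-labelled libraries and 0.916 ± 0.0285 in WT libraries (SD, n = 3 each). Col4a6 was at 1.41, 4.90 and 2.47 CPM in KO 1 to 3, against 3.95, 2.34 and 2.73 CPM in WT 1 to 3, a log2 fold change of -0.04 (SE 0.47, adjusted p = 0.987).

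The type IV genes lie in head-to-head pairs, and partners differed in how alike they were. Col4a4 on the minus strand and Col4a3 on the plus strand overlap by 114 bases at their outermost RefSeq starts. From the start that the Col4a4 window uses they do not overlap, and the Col4a3 start lies 72 bases upstream of it, inside the window printed above. Both members of that pair were lower. Col4a1 and Col4a2 overlap by 85 bases on chromosome 8, and neither differed beyond its spread. Between Col4a6 and Col4a5 the outermost starts are 1275 bases apart, and Col4a5 was lower without overlap while Col4a6 overlapped between groups. Whether the authors' counting used strand is not given in the sources used here, so reads in the overlaps could be assigned to either partner. Per length, Col4a3 had 0.03, 0.03 and 0.05 FPKM in KO 1 to 3, against 1.68, 1.09 and 0.41 FPKM in WT 1 to 3, and its share of the Col4a1 level was 0.00504 ± 0.00214 in KO-labelled and 0.141 ± 0.0804 in WT libraries (SD, n = 3 each). FPKM values are deposited with 2 decimals, which limits the lowest of these.

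**Figure D3:**
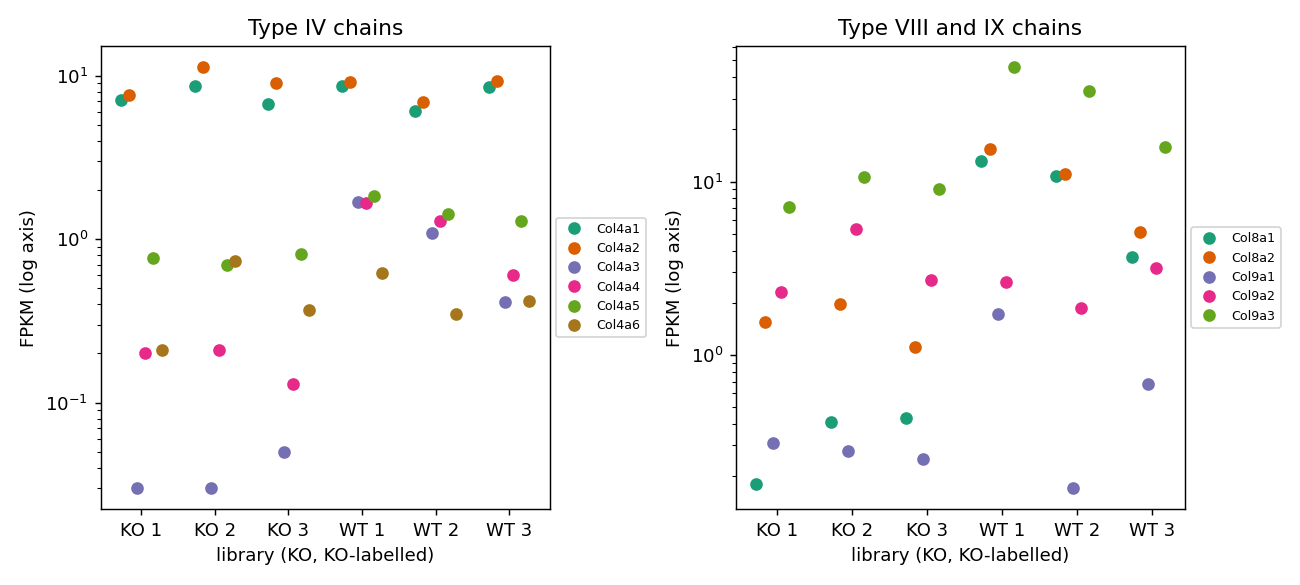
Deposited FPKM (log axis) of the type IV chains and of the type VIII and IX chains in each library, KO-labelled on the left and WT on the right. Col4a1 and Col4a2 stay between 6.11 and 11.3 FPKM in all 6 libraries, while Col4a3, Col4a4, Col4a5, Col8a1, Col8a2 and Col9a3 are lower in every KO-labelled library than in every WT library.

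Type IX collagen is a fibril-associated collagen that coats type II fibrils of cartilage, and its 3 chains did not move together. Col9a3 (chromosome 2, 180598102 to 180622192) was at 20.6, 29.8 and 25.3 CPM in KO 1 to 3, against 122, 94.2 and 44.3 CPM in WT 1 to 3. Its log2 fold change was -1.78 (SE 0.37; adjusted p = 0.215 in edgeR and 9.78e-05 in DESeq2). Col9a2 was at 6.48, 14.6 and 7.46 CPM in KO 1 to 3, against 6.93, 5.22 and 8.70 CPM in WT 1 to 3, groups that overlapped. Col9a1 was at 1.0, 0.864 and 0.939 CPM in KO 1 to 3, against 5.63, 0.54 and 2.20 CPM in WT 1 to 3, with WT 2 below every KO-labelled library. Per length Col9a3 exceeded Col9a2 in all 6 libraries, by a ratio of 2.83 ± 0.741 in KO-labelled and 13.5 ± 7.33 in WT libraries (SD, n = 3 each). In KO-labelled libraries Col9a3 kept a higher part of its WT level than Col8a1 or Col4a3 did, as its smaller fold change shows.

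Choroid plexus, the tissue in the ventricles that makes cerebrospinal fluid, was read from its marker genes, and these were lower in the same libraries. All 12 markers on the list were lower without overlap, and their summed level was 307 to 510 CPM in KO-labelled libraries, against 5309 to 22747 CPM in WT libraries. No marker was at 0 in any library, although the bicarbonate transporter gene Slc4a5 was at 0.177 to 0.749 CPM in KO-labelled libraries. Among KO-labelled libraries the sum was 468, 510 and 307 CPM in KO 1 to 3. Within that group Col8a2 and Col4a4 were likewise lowest in KO 3, and Col9a3 was lowest in KO 1. Col8a1, Col4a3 and Col4a5 were instead highest in KO 3. Among WT libraries the sum was highest in WT 1 and lowest in WT 3, with a ratio of 4.29 between them. The same ratio of WT 1 to WT 3 was 3.95 for Col4a3, 3.42 for Col8a1, 2.91 for Col8a2, 2.75 for Col9a3, 2.59 for Col4a4 and 1.38 for Col4a5, and all 6 genes had WT 2 between them. That order, WT 1 over WT 2 over WT 3, was shared by 9 of the 42 tested collagen genes, the others being Col5a2, Col17a1 and Col18a1. The share of all genes with that order was not counted. Some genes with overlapping groups, not called by DESeq2, also had high ratios of WT 1 to WT 3. These included Col6a4 at 3.69, Col9a1 at 2.55 and Col6a3 at 2.30, while Col4a1 had 0.98. All 8 ependymal markers also had negative log2 fold changes, but only 5 were lower without overlap, and DESeq2 called 4. Of all genes tested, 8.74% were lower without overlap, and DESeq2 called 2.02% lower. The ependymal markers summed to 86.7 to 127 CPM in KO-labelled and 173 to 247 CPM in WT libraries, and none was at 0. The part of choroid plexus or ependymal content in the collagen differences was not tested.

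**Figure D4:**
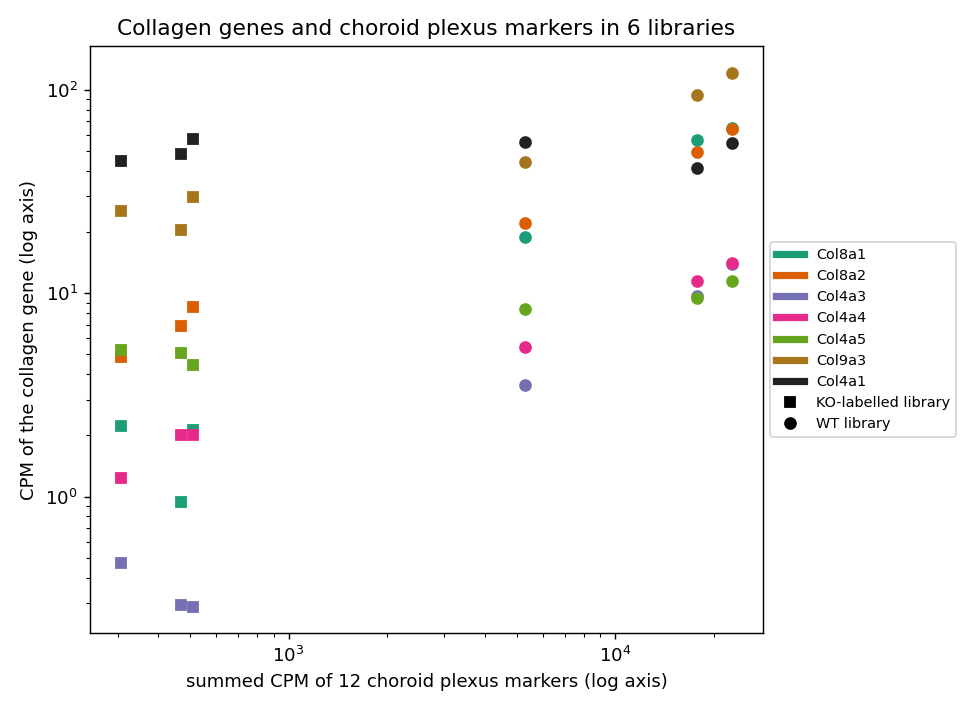
CPM of the 6 genes and of Col4a1 (y axis, log) against the summed CPM of 12 choroid plexus markers (x axis, log) in the 6 libraries; squares are KO-labelled and circles WT. KO-labelled libraries lie between 307 and 510 on the x axis and WT libraries between 5309 and 22747, and Col4a1 stays between 41.3 and 57.5 CPM throughout.

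Of the 11 fibrillar genes, all were tested and none was called by edgeR or DESeq2. Col1a1 and Col1a2, the chains of type I collagen of fibrous tissue, were highest in KO 2. Col1a1 was at 15.7, 43.4 and 18.8 CPM in KO 1 to 3, against 19.1, 13.6 and 17.2 CPM in WT 1 to 3. Col1a2 was at 22.7, 52.4 and 23.0 CPM in KO 1 to 3, against 37.1, 23.7 and 35.9 CPM in WT 1 to 3. Col1a1 had a log2 fold change of 0.65 (SE 0.40) and Col1a2 one of 0.02 (SE 0.37), with adjusted p-values of 0.671 and 0.992 in edgeR. Without KO 2 the value of Col1a1 was 0.059 and that of Col1a2 was -0.50. The FPKM ratio of Col1a1 to Col1a2 was 0.687 ± 0.0671 in KO-labelled libraries and 0.459 ± 0.0415 in WT libraries (SD, n = 3 each), with no overlap. Col3a1, the type III chain of vessel walls, was at 1.53, 16.2 and 6.75 CPM in KO 1 to 3, against 4.17, 3.0 and 6.85 CPM in WT 1 to 3.

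The most abundant fibrillar gene per length after Col1a2 was Col11a2, a type XI chain of cartilage fibrils. It was at 24.4, 33.2 and 26.2 CPM in KO 1 to 3, against 22.6, 34.6 and 29.7 CPM in WT 1 to 3, with a log2 fold change of -0.05 (SE 0.19, adjusted p = 0.957 in edgeR). Col27a1, a fibrillar chain of cartilage, was the fibrillar gene with the smallest p. It was at 10.8, 10.7 and 11.1 CPM in KO 1 to 3, against 13.0, 19.7 and 16.8 CPM in WT 1 to 3, so the groups did not overlap, and WT 1 was the lowest WT library, unlike for the 6 genes above. Its log2 fold change was -0.60 (SE 0.17; adjusted p = 0.366 in edgeR and 0.169 in DESeq2). Of all DESeq2 fits, Col27a1 was called in that without WT 1 alone (adjusted p = 0.0273). Type V chains, which set fibril diameter, had log2 fold changes of 0.09 for Col5a1, 0.23 for Col5a2 and -0.53 for Col5a3. Col11a1 had -0.10, Col2a1 -0.06 and Col24a1 0.23, and groups overlapped in all of these except Col27a1.

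Beaded filament collagens of type VI, which surround cells in connective tissue, differed widely within the WT group for Col6a1 and Col6a3. Per length Col6a1 had the highest mean of the family in KO-labelled libraries, at 22.6 ± 4.0 FPKM, whereas in WT libraries, where it was at 20.7 ± 13.3 FPKM, Col9a3 was higher at 31.7 ± 15.05 FPKM (SD, n = 3 each). Across libraries Col6a1 was at 111, 76.3 and 87.0 CPM in KO 1 to 3, against 21.0, 123.3 and 105 CPM in WT 1 to 3, with WT 1 far below the rest. Its log2 fold change was 0.14 (SE 0.58, adjusted p = 0.965 in edgeR) and became -0.32 without WT 1. The partner chain Col6a2 was at 16.4, 26.0 and 15.7 CPM in KO 1 to 3, against 10.2, 18.8 and 18.9 CPM in WT 1 to 3. Col6a3 was at 8.72, 43.0 and 27.1 CPM in KO 1 to 3, against 69.2, 1.68 and 30.1 CPM in WT 1 to 3, so that WT 1 and WT 2 held both extremes. Of the newer chains, Col6a5 was at 1.83, 3.05 and 2.17 CPM in KO 1 to 3, against 3.14, 8.94 and 4.58 CPM in WT 1 to 3, a log2 fold change of -1.24 (SE 0.43, adjusted p = 0.477 in edgeR). Its groups did not overlap, and the value was -0.72 without WT 2. Col6a4 had a log2 fold change of 0.03, and Col6a6, with 3 to 10.4 counts in KO-labelled and 2 to 18 in WT libraries, was not tested. These 3 are neighbouring paralogs on chromosome 9, so reads could be split between them.

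Striatal projection neuron markers were also unequal within the WT group, with sums of 245, 3029 and 834 CPM in WT 1 to 3, against 1479, 1937 and 1734 CPM in KO 1 to 3. Col6a1 and those markers were both lowest in WT 1 and highest in WT 2. Among KO-labelled libraries their orders were opposite, with Col6a1 highest in KO 1 and lowest in KO 2 and the markers the reverse. Col6a3, Col23a1 and Col25a1 were highest in WT 1 and lowest in WT 2. Col6a3 and Col23a1 were lowest in KO 1 and highest in KO 2 among KO-labelled libraries, as the markers were. Col25a1 was lowest in KO 2 of that group. The part of regional tissue content in these genes was not tested.

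Among the transmembrane collagens, Col25a1, made by neurons and found in amyloid plaques of Alzheimer's disease, was at 100.4, 81.6 and 126 CPM in KO 1 to 3, against 146, 43.9 and 129.9 CPM in WT 1 to 3. Its FPKM averaged 13.8 ± 2.98 in KO-labelled and 14.7 ± 7.85 in WT libraries (SD, n = 3 each), and its log2 fold change was -0.05 (SE 0.43, adjusted p = 0.983 in edgeR). Col23a1 was at 11.7, 30.6 and 23.7 CPM in KO 1 to 3, against 44.1, 5.64 and 24.5 CPM in WT 1 to 3. Col17a1, a hemidesmosome protein of epithelia, was at 0.589, 7.95 and 0.587 CPM in KO 1 to 3, against 3.57, 3.24 and 2.26 CPM in WT 1 to 3, so KO 2 alone lay above the WT range. DESeq2 called Col17a1 lower when KO 2 was left out, and Col9a1 lower when WT 2 was left out. Col13a1, found at neuromuscular junctions, had a log2 fold change of 0.16.

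Of the fibril-associated collagens other than type IX, only Col14a1 had a negative log2 fold change, and the rest had positive ones. Col14a1 was at 2.06, 1.84 and 1.06 CPM in KO 1 to 3, against 2.65, 4.68 and 2.73 CPM in WT 1 to 3, a log2 fold change of -1.02 (SE 0.37, adjusted p = 0.494 in edgeR). Col16a1 was at 18.3, 18.5 and 19.8 CPM in KO 1 to 3, against 15.6, 14.8 and 16.9 CPM in WT 1 to 3, a log2 fold change of 0.26 (SE 0.11, adjusted p = 0.545). Neither overlapped between groups. Col22a1, a collagen of tissue junctions, was the other gene higher without overlap, at 0.763 to 1.61 CPM in KO-labelled and 0.24 to 0.758 CPM in WT libraries. Its separation rests on the scaling, since the estimated counts (12.99 to 27.99 in KO-labelled, 4 to 14 in WT libraries) and the deposited FPKM overlapped. Col12a1 (0.43), Col19a1 (0.25) and Col20a1 (0.13) overlapped. Col19a1 is expressed by interneurons that form inhibitory synapses.

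The multiplexins Col15a1 and Col18a1 sit in basement membranes, and the end of type XVIII collagen can be released as endostatin. Col18a1 was at 7.31, 24.1 and 13.3 CPM in KO 1 to 3, against 30.9, 22.8 and 17 CPM in WT 1 to 3, with KO 2 inside the WT range (log2 fold change -0.66, SE 0.44, adjusted p = 0.697 in edgeR). Of its 6 transcript models, 1 took 94.0%, 79.0% and 91.2% of the gene's estimated counts in KO 1 to 3, against 52.7%, 62.8% and 46.6% in WT 1 to 3, without overlap. Transcript models of Col4a4, Col4a5, Col11a2, Col14a1, Col16a1 and Col17a1 also had shares that did not overlap between the groups. For Col4a4, 1 model took 100% in each KO-labelled library, against 87.6%, 82.6% and 85.1% in WT 1 to 3. Some of these rest on few counts, as with 10 for Col17a1 in KO 1 and in KO 3. All such shares are estimated splits between overlapping transcripts and were not tested. Col15a1 was at 6.60, 20.6 and 12.7 CPM in KO 1 to 3, against 20.4, 6.30 and 11.4 CPM in WT 1 to 3. Of the last genes, Col7a1, which forms the anchoring fibrils of skin, had a log2 fold change of 0.30, Col26a1 0.31 and Col28a1 0.15, and all overlapped.

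KO 2 was the highest library for 15 of the 42 tested genes, more than any other library, and WT 1 was highest for 12. WT 2 was the lowest library for 16, again more than any other. The shares of all genes with their highest or lowest value in these libraries were not counted. Among the 15 genes highest in KO 2 were Col1a1, Col1a2, Col3a1, Col4a1, Col4a2, Col15a1 and Col17a1. Mural cell markers, of smooth muscle and pericytes, were likewise highest in KO 2, with sums of 247, 443 and 274 CPM in KO 1 to 3, against 200, 285 and 271 CPM in WT 1 to 3. Endothelial marker sums were instead highest in WT 2, at 225, 268 and 219 CPM in KO 1 to 3, against 208, 276 and 240 CPM in WT 1 to 3. No endothelial or mural marker was at 0. Fibroblast and meningeal markers summed to 233, 542 and 285 CPM in KO 1 to 3, against 1011, 749 and 432 CPM in WT 1 to 3, mostly from Igf2, and none of the 10 was at 0. The part of vessel or meningeal content in the levels of these genes was not tested.

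**Figure D5:**
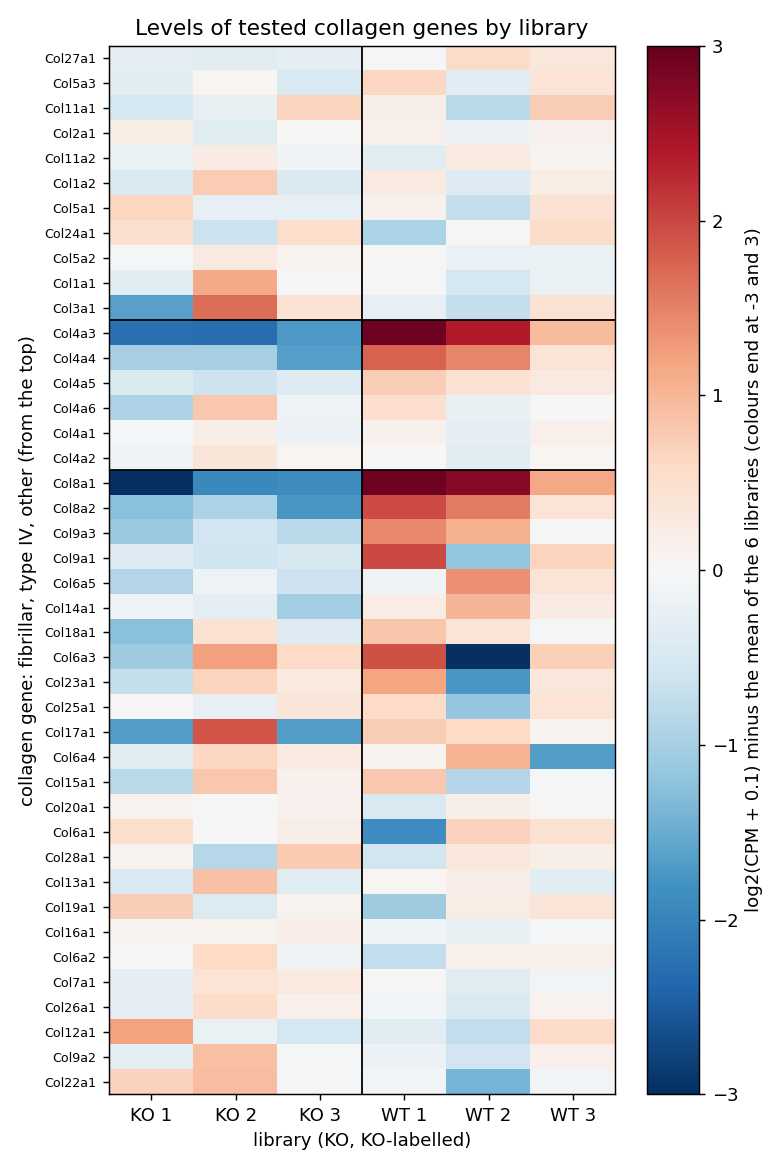
Levels of the 42 tested collagen genes (rows, by class) in the 6 libraries (columns, KO-labelled left of WT), as log2(CPM + 0.1) minus the gene's mean over the libraries, with colours ending at -3 and 3. Col4a3, Col4a4, Col8a1 and Col8a2 are blue in KO-labelled and red in WT libraries, Col9a3 is near its mean in WT 3, and Col1a1, Col3a1 and Col17a1 are reddest in KO 2.

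Genes that make, hold, bind and break down collagen were examined from 4 lists, and edgeR called none of them over all genes tested. The biosynthesis list of 31 genes had 30 tested, 23 of them lower and 7 higher, with a median log2 fold change of -0.15. In it 6 were lower and 0 higher at an unadjusted p under 0.05, beside 6.39% of all genes lower. DESeq2 called 2 lower, beside 2.02% of all genes. Those 2 were the procollagen C-proteinase enhancer genes Pcolce2 and Pcolce. Pcolce2 was at 8.13, 8.29 and 4.99 CPM in KO 1 to 3, against 28.0, 21.1 and 10.8 CPM in WT 1 to 3 (adjusted p = 0.313 in edgeR and 0.0101 in DESeq2). Pcolce was at 8.13, 21.8 and 8.93 CPM in KO 1 to 3, against 74.9, 47.4 and 21.6 CPM in WT 1 to 3 (adjusted p = 0.402 in edgeR and 0.0109 in DESeq2), with KO 2 just above WT 3. The cross-linking enzyme gene Loxl2 averaged 4.10 ± 0.842 CPM in KO-labelled and 7.09 ± 1.33 CPM in WT libraries, and the prolyl 3-hydroxylase gene P3h2 2.00 ± 0.561 and 4.17 ± 1.0 CPM in the same order (SD, n = 3 each).

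Of 26 tested basement membrane and matrix partners, 16 were lower and 10 higher (median -0.04), 4 were lower at an unadjusted p under 0.05, and DESeq2 called 1, beside the same 6.39% and 2.02% of all genes. That gene was Nid2, a nidogen that links laminin to type IV collagen, at 5.36, 6.10 and 5.28 CPM in KO 1 to 3, against 26.5, 26.6 and 9.34 CPM in WT 1 to 3 (adjusted p = 0.222 in edgeR and 0.000344 in DESeq2). The laminin genes Lama5 and Lamb1 had log2 fold changes of -0.91 (SE 0.29) and -0.62 (SE 0.25), and the fibrillin gene Fbn1 -0.93 (SE 0.36). Among 9 tested receptors, 6 were lower and 3 higher, 1 was lower at an unadjusted p under 0.05, and DESeq2 called 0 (all genes, 6.39% and 2.02%). The integrin genes Itga1, Itga11 and Itgb1 had log2 fold changes of -0.52 (SE 0.18), 0.71 (SE 0.32) and -0.13 (SE 0.09), and the collagen receptor kinase gene Ddr1 -0.34 (SE 0.17). Among 11 tested breakdown genes, 7 were lower and 4 higher, 2 were lower at an unadjusted p under 0.05, and DESeq2 called 1 (all genes, 6.39% and 2.02%). The DESeq2 call was Fap, a surface protease gene, at 0.648, 0.806 and 0.176 CPM in KO 1 to 3, against 9.80, 10.9 and 3.02 CPM in WT 1 to 3 (adjusted p = 0.178 in edgeR and 6.51e-07 in DESeq2). The inhibitor gene Timp3 had -0.43 (SE 0.13), and the metalloproteinase genes Mmp15 and Mmp2 had -0.57 (SE 0.34) and -0.37 (SE 0.23). WT 3 was the lowest WT library for Pcolce2, Pcolce, Nid2 and Fap, as it was for the choroid plexus markers.

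In edgeR the call count depended on a single library. Without WT 3, edgeR called 137 genes, 0.895% of those tested and all lower in the KO-labelled libraries, and 5 of them were collagen genes. These were Col8a1 (adjusted p = 0.00522), Col8a2 (0.0108), Col4a3 (0.0047), Col4a4 (0.0151) and Col9a3 (0.0143). With any other library left out, edgeR called none.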

How the data were processed

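RNA was sequenced (paired-end, per the labels' protocols) from 3 KO-labelled and 3 WT libraries. The authors deposited estimated counts and FPKM for 61481 RefSeq transcripts, per the file headers and the values; build mm10 and limma 3.40.6 are named in the submitters' processing notes. Which aligner and annotation release were used is not given in the sources used here.

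For each NCBI gene number the transcripts' estimated counts were added up and rounded; symbols came from RefSeq (GRCm38.p6), and 125 genes without one held 0.104% to 0.140% of counts. The main test was edgeR's (version 4.0.16, R 4.3.3; TMM, filterByExpr with a minimum count of 10, robust quasi-likelihood F test, two-sided, Benjamini-Hochberg over all genes tested, threshold 0.05), with DESeq2 1.42.0 and limma-voom 3.58.1 as alternatives. CPM is TMM-scaled; the deposited FPKM was summed over a gene's transcripts. The scripts were tested on simulated data. Libraries of a group differed beyond sampling noise (chi-square per degree of freedom 22.6 to 99.5).

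Collagen genes and lists were chosen with earlier results of these data known. Full statistics were given for the 3 tested genes of highest mean FPKM per class and the 10 of smallest edgeR p. Up to 4 genes of smallest p per list were named, most of them with a log2 fold change or group values but no p-value. The rest of the family is given more briefly, several with per-library values chosen after these were seen. Ratios between chains, library orders and the promoters shown were also chosen after seeing the data.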

Additional observations from a re-analysis of the deposited data

How the results depend on the processing

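Normalization with DESeq2 size factors or upper quartile scaling, no filter on low counts and limma-voom left the counts at 0 genes and 0 collagen genes, while DESeq2 called 311 genes and 6 collagen genes. With single libraries left out, in edgeR or DESeq2, the counts ranged from 0 to 451 genes and from 0 to 7 collagen genes; DESeq2 then called between 6 and 7, always including Col8a1, Col8a2, Col4a3, Col4a4 and Col9a3. A fit of KO 1, whose tag alone names ZHX2, against WT takes its spread from the 3 WT libraries only and called 0 genes, which says little about stability; the median log2 fold change of collagen genes was then -0.50, and the cause was not tested. The 6 genes called by DESeq2 kept a negative log2 fold change in all 19 alternatives, from -5.62 to -4.41 for Col8a1 and from -1.11 to -0.86 for Col4a5. Some of the other named genes changed sign. With limma-voom Col1a2 had -0.071 and Col25a1 0.11, and with the replicate block -0.083 and 0.10. With KO 1 alone Col1a2 and Col4a2 had -0.50 and -0.082. Col1a1, which was not near 0 in the main fit (0.65), had -0.076 with KO 1 alone and 0.059 without KO 2. With single libraries left out, Col1a2 ranged from -0.51 to 0.22, Col25a1 from -0.44 to 0.25, Col4a1 from -0.15 to 0.068, Col6a1 from -0.32 to 0.54 and Col11a2 from -0.20 to 0.09.

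No pairing by replicate number was seen. Deviations of same-numbered libraries from their group means correlated at -0.162, -0.067 and -0.037, and no library correlated best with its own number. Deviations from a mean of 3 libraries are tied to each other, so these values cannot exclude pairing. With the replicate as a block edgeR called 0 genes, and the median of collagen genes was 0.08. At this depth a gene near 3 counts, such as Col10a1, gives no detectable difference.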
